A study of Mus musculus with 36 samples.

Results

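Magoh and Magohb are a pair of paralogous mouse genes, and both were present among the 49671 genes of the deposited count table. They were taken by Ensembl identifier, as ENSMUSG00000028609 (Magoh) and ENSMUSG00000030188 (Magohb), and chosen because Magohb counts were low in Mll2 knockout cells while Magoh counts were not. The Mll2 knockout values of both genes are therefore given as a description, without a test. Both genes passed the filter on low counts that left 23501 genes for testing.

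The exon junction complex is a group of proteins that the spliceosome leaves on messenger RNA just upstream of each exon junction. Its core holds the RNA helicase EIF4A3, a dimer of MAGOH with RBM8A (also called Y14), and CASC3, and it serves messenger RNA export, localization, translation and nonsense-mediated decay, the pathway that removes transcripts with premature stop codons. MAGOHB is encoded by a separate gene and can take the place of MAGOH in the dimer. MLL2, encoded by Kmt2b in the mouse, is a histone H3 lysine 4 methyltransferase that acts at CpG-rich promoters, SETD1A is another methyltransferase of that family, and BOD1L is a chromatin protein of the SETD1A complex.

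The 36 RNA-seq libraries came from mouse stem cells of 3 lines, named Bod1L, Setd1a and Mll2 after the targeted gene. Each line was sampled as knockout and as wild type in 3 media, with 2 libraries labelled as biological replicates in each of the 18 groups. Naive embryonic stem cells grew in 2i (LIF with the inhibitors PD0325901 and CT99021), cycling embryonic stem cells in FCS (LIF with fetal calf serum) and epiblast-like stem cells (EpiSC) in medium with Activin A and FGF2. Titles of knockout samples name tamoxifen and those of wild-type samples do not, so the treatment and the genotype cannot be told apart. Nothing in the labels says that replicates came from separate cell clones, and p-values measure only the spread between these libraries.

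Library totals ran from 24490158 to 40591108 gene counts. Bod1l fell in Bod1L knockout cells (averaged log2 fold change -2.21 ± 0.14 SE, edgeR adjusted p = 1.83e-09), Setd1a was -0.38 ± 0.14 in Setd1a knockout cells (adjusted p = 0.0957) and Kmt2b was -0.28 ± 0.17 in Mll2 knockout cells (adjusted p = 0.744). Counts of a whole gene include exons outside a deletion, so the last pair of values checks the labels only weakly. In the Mll2 line in 2i, Kmt2b stood at 145 and 136 CPM (counts-per-million, scaled by TMM) in the knockout libraries, against 183 CPM in wild-type replicate 1 and 89.6 CPM in the library labelled wild-type replicate 2. That library also had the highest Magoh and Rbm8a levels of the wild-type libraries, and the Mll2 values of both paralogues in 2i are given with and without it. Summed naive markers (8 genes) ran from 2500 to 3742 CPM in 2i, 852 to 2747 CPM in FCS and 17.6 to 545 CPM in EpiSC medium. Summed primed markers (8 genes) ran from 129 to 310 CPM in 2i. They ran from 467 to 1664 CPM in FCS and from 277 to 1740 CPM in EpiSC medium, with overlap between these media. Sums of 8 fibroblast or feeder markers ran from 13.9 to 53.0 CPM in 2i and from 94.5 to 6470 CPM in EpiSC medium. In EpiSC medium 0 of the 8 feeder markers were at 0 in any library (up to 3 of 8 in 2i). All 12 EpiSC libraries carry numbers of a later series of 13 libraries, so EpiSC medium and that series cannot be told apart. The remaining library of that series was Setd1a knockout 2i replicate 1, while every other 2i library carries an earlier number. In that replicate pair genotype and series cannot be told apart either.

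Magoh lies at chr4:107879755-107887424 on the plus strand and Magohb at chr6:131284388-131293244 on the minus strand of GRCm38. Each main coding transcript has 5 exons, with 692 bases for Magoh and 767 for Magohb. Their coding sequences (441 and 447 bases in GENCODE) were identical at 357 of 441 aligned bases (81.0%), with 84 mismatches. The 120 aligned coding bases that were most alike are shown, as no other stretch of that length without a gap held fewer mismatches. Capitals mark the 17 mismatches, and the stretch covers coding bases 98 to 217 of Magoh and 104 to 223 of Magohb, counted from the start codon.
Magoh: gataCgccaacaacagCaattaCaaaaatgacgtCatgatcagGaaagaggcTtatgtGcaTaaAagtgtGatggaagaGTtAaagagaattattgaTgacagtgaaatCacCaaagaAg
Magohb: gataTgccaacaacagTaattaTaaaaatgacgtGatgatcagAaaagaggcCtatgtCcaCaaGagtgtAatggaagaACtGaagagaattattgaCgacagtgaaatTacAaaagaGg
The longest exact run shared by the transcripts was 17 bases. In the coding sequence such a run covers bases 280 to 296 of Magoh, outside the stretch shown. None of the 643 windows of 50 bases in Magoh occurred in Magohb (0 of 718 in the other direction), so reads of that length from the 2 genes differ in sequence. A pseudogene, Gm44958, overlaps Magohb on the same strand and held 0 to 5 counts per library.

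The 250 bases upstream of each annotated start are shown because a histone methyltransferase of CpG-rich promoters is the factor removed. Capitals mark the dinucleotide CG, which reads the same on both strands. The Magoh window is chr4:107879505-107879754 on the plus strand and the Magohb window chr6:131293245-131293494 on the minus strand, both from RefSeq on GRCm38.p6 and written 5′ to 3′.
Magoh: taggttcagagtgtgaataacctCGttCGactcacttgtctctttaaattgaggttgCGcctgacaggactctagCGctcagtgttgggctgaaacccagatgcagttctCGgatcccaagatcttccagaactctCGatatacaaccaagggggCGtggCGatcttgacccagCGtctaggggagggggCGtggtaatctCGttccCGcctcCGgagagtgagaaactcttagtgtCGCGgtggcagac
Magohb: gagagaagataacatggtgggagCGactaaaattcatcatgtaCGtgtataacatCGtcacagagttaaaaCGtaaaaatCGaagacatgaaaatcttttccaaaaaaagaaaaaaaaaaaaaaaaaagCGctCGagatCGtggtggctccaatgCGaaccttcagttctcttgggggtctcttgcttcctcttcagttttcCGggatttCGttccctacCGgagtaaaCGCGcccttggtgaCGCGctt
The printed windows hold 15 CG in Magoh and 16 in Magohb. With the first 50 transcribed bases included, the counts were 22 and 25 in 300 bases, against a median of 7 over 32851 promoters. Of those promoters, 76.9% had fewer CG than Magoh and 81.6% had fewer than Magohb. The share of G and C in the same 300 bases was 54.7% for Magoh and 48.3% for Magohb. The part of promoter sequence in the knockout values of either gene was not tested. The promoter windows say nothing of histone marks, which were not analysed here.

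Magohb transcripts were close to 0 in Mll2 knockout cells in 2i, low in FCS and near the wild-type level in EpiSC medium. In 2i the knockout libraries held 3 and 9 Magohb counts (0.09 and 0.29 CPM), against 65 and 408 counts (1.87 and 12.6 CPM) in wild type. Both knockout libraries were below both wild-type libraries, which themselves differed 6.72-fold. In FCS the knockout libraries held 3.81 and 1.46 CPM and the wild-type libraries 20.9 and 18.5 CPM, again without overlap. In EpiSC medium the values were 11.0 and 9.88 CPM in knockout and 11.1 and 11.3 CPM in wild type. Those knockout values lay just below the wild-type values.

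As a share of the wild-type mean, Magohb in Mll2 knockout cells stood at 2.63% for 2i, 13.4% for FCS and 93.1% for EpiSC medium. The fitted log2 fold changes were -5.23 ± 0.95 (SE), -2.90 ± 0.80 and -0.10 ± 0.74, and their average over the media was -2.75 ± 0.48. Without the library labelled Mll2 wild type 2i replicate 2 the 2i value was -3.27 and the average -2.10, and without Mll2 knockout 2i replicate 2 they were -6.26 and -3.09. Set against the wild-type library of the same replicate number, Magohb was at 4.79% and 2.31% for 2i, at 18.2% and 7.88% for FCS, and at 99.2% and 87.1% for EpiSC medium. Both replicate numbers thus gave the same order of media. From counts alone, the pooled ratio in 2i was 2.65% (exact 95% interval 1.36% to 4.67%), where the library labelled wild-type replicate 2 supplies 408 of the wild-type counts. Against wild-type replicate 1 alone, with the same knockout counts, it was 9.95% (4.89% to 18.6%), so the ratio depends on the library labelled wild-type replicate 2. For knockout replicate 1, with its 3 counts, it was 1.27% of pooled wild type (0.262% to 3.75%). These intervals cover counting error only, and bulk data cannot tell fewer cells with Magohb transcripts from less transcript per cell.

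**Figure D1:**
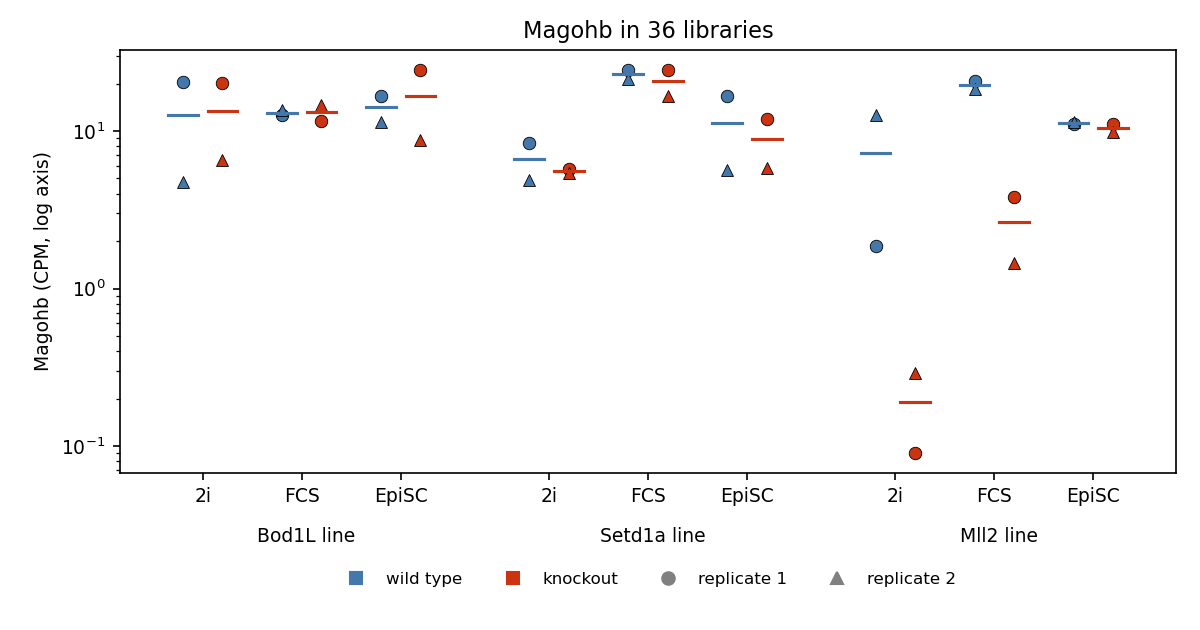
Magohb level in counts-per-million (log axis) in all 36 libraries, by line and medium; circles are replicate 1, triangles replicate 2, and bars the mean of 2 libraries. The Mll2 knockout libraries in 2i lie at 0.09 and 0.29 CPM and those in FCS at 3.81 and 1.46 CPM, below every other library of their medium, while those in EpiSC medium lie at 11.0 and 9.88 CPM.

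Compared with the 10 other libraries of the same medium, the Mll2 knockout libraries were the lowest for Magohb in 2i (the others held 1.87 to 20.6 CPM) and in FCS (11.7 to 24.6 CPM). In EpiSC medium the 10 other libraries held 5.68 to 24.6 CPM, and 3 of them were at or below the higher knockout library. Ordered by mean Magohb level, the 18 groups began with Mll2 knockout in 2i (0.19 CPM) and in FCS (2.63 CPM). The next was Setd1a knockout in 2i (5.58 CPM), and from there each group overlapped its neighbour in the order up to Setd1a wild type in FCS (22.9 CPM). The first steps of the order were therefore the only ones without overlap between neighbouring groups.

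Magoh, the major paralogue, did not show this pattern. In 2i the Mll2 knockout libraries held 78.9 and 70.6 CPM of Magoh and the wild-type libraries 77.1 and 129 CPM. In FCS they held 84.7 and 89.3 CPM against 77.3 and 83.9 CPM. In EpiSC medium they held 79.6 and 75.5 CPM against 54.5 and 70.1 CPM. Knockout was thus above wild type in both replicate numbers in FCS and EpiSC medium, and split in 2i. The log2 fold changes were -0.46 ± 0.26 in 2i, 0.11 ± 0.26 in FCS and 0.32 ± 0.26 in EpiSC medium, with an average of -0.01 ± 0.15. Without the library labelled Mll2 wild type 2i replicate 2, the 2i value was -0.02 and the average 0.13.

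**Figure D2:**
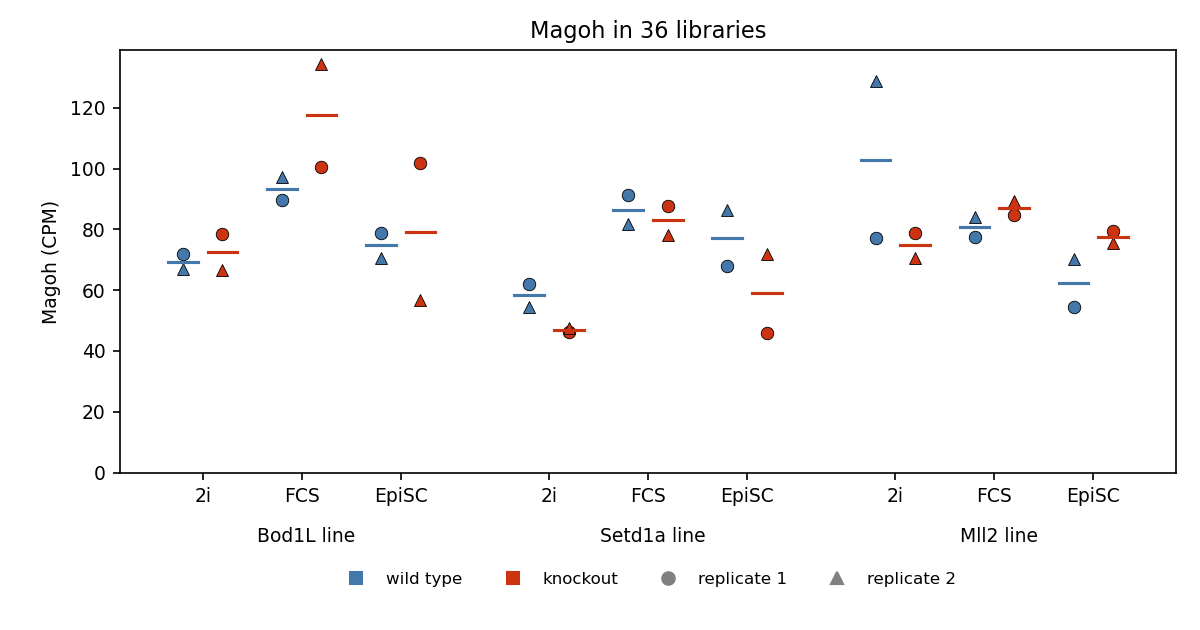
Magoh level in counts-per-million in all 36 libraries, by line and medium, with circles for replicate 1, triangles for replicate 2 and bars for the mean of 2 libraries. The levels span 46.0 to 134 CPM, and the Mll2 knockout libraries lie within this span at 70.6 to 89.3 CPM.

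By its average in Mll2 knockout cells, the contrast that brought the pair to attention, Magohb ranked 75 from the lowest of 23501 genes tested. Its values are set here beside the 149 genes that edgeR called lower on average (0.634% of genes tested), where Dnah5, for an axonemal dynein heavy chain (-3.03), and Pfn4, for a testis profilin (-2.73), had the averages on either side of it. In 2i 144 of the 149 had higher log2 fold changes than Magohb, whose value of -5.23 compares with a median of -2.43. In FCS 145 were higher (median -1.12). In EpiSC medium 145 were lower than the -0.10 of Magohb and 3 were higher, with a median of -1.14 and 146 of 149 below 0. Dnah5 and Pfn4, its neighbours in rank, were at -1.03 and -0.80 in EpiSC medium. The list was defined by the average of the same 3 values, which favours genes that are low in EpiSC medium too, so these positions are a description. Another list, the 100 other genes called lower in 2i alone, had a median of -0.52 in EpiSC medium. There 19 of the 100 lay above Magohb and 81 were below 0, so values near wild type in EpiSC medium were not particular to Magohb. In FCS this list had a median of -0.81, and all 100 lay above Magohb. The size of both lists depended on the fit. With only the 12 libraries of the Mll2 line, edgeR called 1 gene lower on average and 6 lower in 2i. DESeq2 called 328 lower on average and 263 lower in 2i. In FCS and in EpiSC medium alone, the main edgeR fit called 0 genes lower in Mll2 knockout cells.

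**Figure D3:**
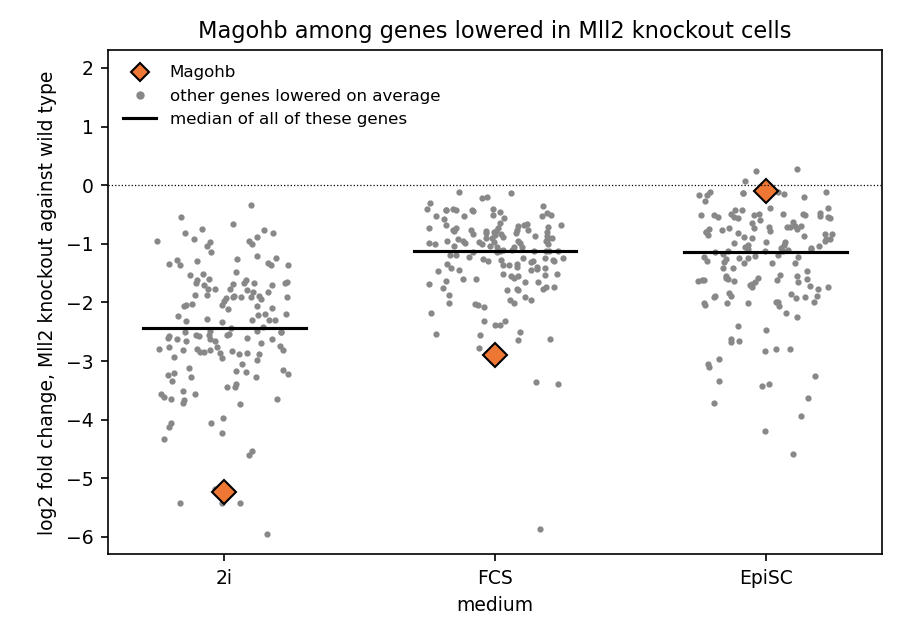
Log2 fold change of Mll2 knockout against wild type in each medium for the 149 genes called lower on average; diamonds are Magohb, grey points the other genes and bars the medians (-2.43, -1.12 and -1.14). Magohb is near the bottom of the range in 2i and FCS and near its top in EpiSC medium.

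Levels of other cell type markers moved with medium in the Mll2 line too. Summed fibroblast or feeder markers ran from 19.9 to 30.2 CPM in 2i and from 94.5 to 162 CPM in EpiSC medium, and 7 primitive endoderm markers from 6.32 to 16.0 CPM and from 153 to 203 CPM. Within 2i, naive markers were at 2557 and 3345 CPM in knockout and 3171 and 3391 CPM in wild type, with overlap. Feeder markers in 2i were at 23.0 and 30.2 CPM in knockout against 20.3 and 19.9 in wild type, and primitive endoderm markers at 16.0 and 11.8 against 11.0 and 6.32, both without overlap. Averaged over media, 1 of the 7 primitive endoderm markers was called higher in Mll2 knockout cells and 0 of the 8 feeder markers were called (edgeR; 2 of each list at an unadjusted p below 0.05). Of all genes 0.694% were called, and 1980 of 23501 had an unadjusted p below 0.05. Of 7 trophoblast markers 0 were called (edgeR, 1 at an unadjusted p below 0.05) and 0 were below 0, with a median of 0.61. Their sums ran from 146 to 241 CPM in 2i and from 674 to 1374 CPM in EpiSC medium, over both genotypes. The part of these differences in the Magohb values was not tested.

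The sum of both genes, each per kilobase of annotated exon so that the levels are comparable, was set mainly by Magoh. Over all 36 libraries Magoh averaged 101 CPM per kilobase and Magohb 6.80, and Magohb supplied 0.0509% to 11.4% of the sum. The annotated length of Magohb (1720 bases) includes noncoding variants and exceeds its main coding transcript, so this share depends on the length used. With the lengths of the main coding transcripts, the highest share (Bod1L wild type 2i replicate 1) was 20.5%. For Mll2 the largest wild-type shares were in FCS, at 10.8% and 8.97% of the sum, against 1.97% and 0.724% in knockout.

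By annotated length, the combined level in Mll2 knockout cells was near wild type in FCS, above it in EpiSC medium, and split by replicate in 2i. In FCS the Mll2 knockout libraries held 112 and 117 CPM per kilobase and the wild-type libraries 113 and 120. The knockout mean was 98.6% of wild type. With main transcript lengths the FCS values were 127 and 131 in knockout against 139 and 145 in wild type. As summed CPM without length they were 88.5 and 90.8 against 98.2 and 102. With plain library totals they were 107 and 111 against 115 and 121. Each of these alternatives put both knockout libraries below both wild-type libraries. In 2i the Mll2 knockout libraries held 103 and 91.9 against 101 and 174, a mean of 70.6% that rested on the library labelled wild-type replicate 2. By replicate number the 2i values were 101% and 52.7% of wild type. In EpiSC medium the combined level was 110 and 104 CPM per kilobase in knockout against 77.2 and 97.7 in wild type (122% of wild type). Averaged over the media, the combined level in Mll2 knockout cells was 106 ± 8.79 against 114 ± 33.1 CPM per kilobase (SD, n = 6), and the share of Magohb was 2.39% ± 2.65 against 6.69% ± 3.54.

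**Figure D4:**
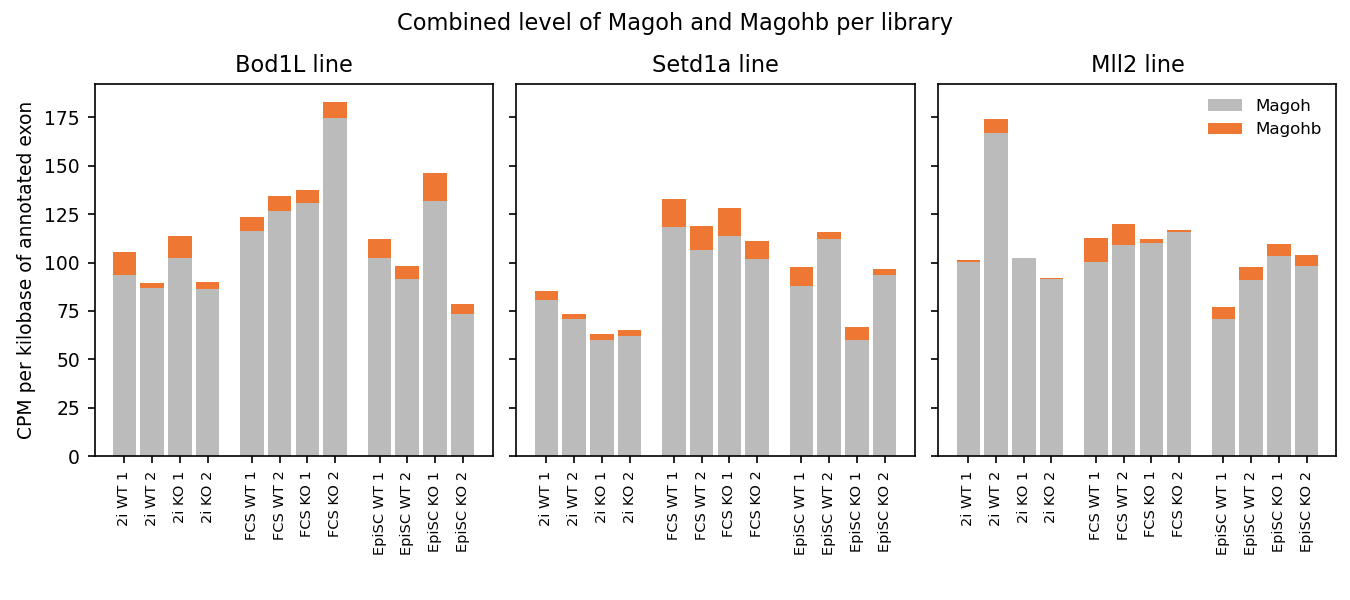
Combined level of Magoh (grey) and Magohb (orange) in CPM per kilobase of annotated exon, 1 stacked bar per library, by line, medium and genotype (WT wild type, KO knockout, then the replicate number). Magohb is the thin upper part, 0.0509% to 11.4% of the bar, and the tall bar of the library labelled Mll2 wild type 2i replicate 2 (174) comes from Magoh.

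Neither gene was called in Bod1L or Setd1a knockout cells, on average or in any single medium. On average, edgeR called 2.03% of all genes in the Bod1L contrast and 8.85% in the Setd1a contrast. In single media these shares were 0.374%, 0.191% and 0.438% for Bod1L and 1.69%, 0.762% and 1.54% for Setd1a (2i, FCS and EpiSC medium). In 2i, Bod1L knockout cells held 20.3 and 6.51 CPM of Magohb against 20.6 and 4.78 in wild type. In FCS they held 11.7 and 14.6 against 12.6 and 13.6, and in EpiSC medium 24.6 and 8.83 against 16.8 and 11.5. The groups overlapped in every medium, and the average log2 fold change was 0.11 ± 0.42 (edgeR adjusted p = 1). In 2i, Setd1a knockout cells held 5.75 and 5.42 CPM against 8.46 and 4.91 in wild type. In FCS they held 24.6 and 16.8 against 24.5 and 21.4, and in EpiSC medium 12.0 and 5.84 against 16.7 and 5.68. These groups overlapped as well (-0.25 ± 0.43, edgeR adjusted p = 0.79). A p above the threshold does not show that the groups were equal.

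Magoh averaged 0.16 ± 0.15 in Bod1L knockout cells (edgeR adjusted p = 0.987) and -0.25 ± 0.15 in Setd1a knockout cells (edgeR adjusted p = 0.323). In 2i, Bod1L knockout cells held 78.6 and 66.5 CPM against 71.9 and 66.8 in wild type. In FCS they held 101 and 134 against 89.5 and 97.3, and in EpiSC medium 102 and 56.6 against 78.9 and 70.5. The FCS values did not overlap and the others did. In 2i, Setd1a knockout cells held 46.1 and 47.6 CPM against 62.0 and 54.5 in wild type. In FCS they held 87.7 and 78.2 against 91.2 and 81.8, and in EpiSC medium 46.0 and 71.9 against 67.9 and 86.5. Each Setd1a knockout library held less Magoh than the wild-type library of its replicate number, at 67.8% to 96.2%, with overlap between the groups in FCS and EpiSC medium only. Ordered by mean Magoh level, the 18 groups ran from Setd1a knockout in 2i (46.9 CPM), which did not overlap the next group, to Bod1L knockout in FCS (117 CPM). Of the other neighbours in that order, only Mll2 knockout and Bod1L wild type in FCS did not overlap.

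The combined level moved with that of Magoh. In Setd1a knockout cells it was 88.6 ± 27.7 CPM per kilobase against 104 ± 22.3 in wild type (SD, n = 6), a log2 difference of -0.26 (two-sided exact permutation within media, p = 0.0278, adjusted p = 0.139 over 10 tests), and so it did not pass the correction. It was below the wild-type library of the same replicate number in all 6 pairs, at 68.2% to 96.7%. Exchanging genotypes within these pairs gave an exact permutation p of 0.0313, the smallest that 6 pairs allow, and an adjusted p of 0.156. In Bod1L knockout cells it was 125 ± 38.7 against 111 ± 16.5 (log2 difference 0.13, exact permutation p = 0.426, adjusted p = 0.608). The share of Magohb in the sum differed by 0.06 percentage points in Setd1a and by -0.23 in Bod1L knockout cells (exact permutation adjusted p = 0.935 for both). The smallest p the tests within media allow is 0.00926. Averaged over media, 0 of the 8 feeder markers were below 0 in Setd1a knockout cells (median log2 fold change 1.28). With edgeR 0 of them were called, beside 8.85% of all genes. In 2i the mitochondrial share of counts was 7.32% and 7.71% in Setd1a knockout, against 4.11% and 3.43% in wild type. The part of these differences in the combined level was not tested.

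Among wild-type cells Magohb had its lowest mean in 2i. Over 6 libraries each it averaged 8.87 CPM in 2i, 18.6 CPM in FCS and 12.2 CPM in EpiSC medium. These include the Mll2 wild-type libraries, which also belong to the contrast that chose the genes. Tests across media that include them are not independent of that choice. For Magohb the log2 difference of FCS from 2i was 1.09 ± 0.43 (edgeR adjusted p = 0.0621, in a contrast where 27.8% of all genes were called). DESeq2 gave 1.11 (adjusted p = 0.0326), a fit without the filter on low counts 1.13 (adjusted p = 3.19e-04), and the Bod1L and Setd1a lines alone 0.91 (adjusted p = 0.246), so whether this difference passed depended on the fit. Without the library labelled Mll2 wild type 2i replicate 2 it was 1.75 (adjusted p = 0.00475), and without Bod1L wild type 2i replicate 1 it was 1.56 (adjusted p = 0.0147). EpiSC medium differed from 2i by 0.51 ± 0.43 (adjusted p = 0.325, with 52.5% of all genes called; 1.19 and 0.0244 without the library labelled Mll2 wild type 2i replicate 2) and from FCS by -0.58 ± 0.42 (adjusted p = 0.298, with 41% called).

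Magoh in wild-type cells was even closer across media, at 76.8 CPM in 2i, 86.9 CPM in FCS and 71.4 CPM in EpiSC medium. Its log2 differences were 0.22 ± 0.15 for FCS from 2i, -0.07 ± 0.15 for EpiSC medium from 2i and -0.29 ± 0.15 for EpiSC medium from FCS (edgeR adjusted p = 0.308, 0.728 and 0.132). The combined level was lower in EpiSC medium than in FCS, at 99.8 ± 13.6 against 124 ± 8.45 CPM per kilobase (SD, n = 6; log2 difference -0.32), with an exact permutation p of 0.00926, the smallest possible, and an adjusted p of 0.0926. Feeder markers were higher in EpiSC medium, as given above, and their part in this difference was not tested. The Mll2 wild-type libraries, part of the contrast that chose the genes, are included in these tests across media too. Between the Setd1a and Bod1L wild-type lines, neither gene was called (Magoh -0.11 ± 0.15, Magohb -0.15 ± 0.42, edgeR adjusted p = 0.734 and 0.899), in a contrast with 12.3% of genes called.

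Magohb varied more between wild-type libraries than Magoh. Over the 18 wild-type libraries the SD of log2 CPM was 0.95 for Magohb and 0.30 for Magoh. Of genes within 2-fold of the level of each, 71.3% had a lower SD than Magohb and 21.2% a lower SD than Magoh. The deviation of Magohb followed the replicate number. In Bod1L cells in 2i, replicate 1 exceeded replicate 2 by 3.12-fold in knockout and 4.31-fold in wild type. In Setd1a cells in EpiSC medium the ratios were 2.05 and 2.95. Knockout and wild type deviated to the same side in 8 of 9 line and medium pairs for Magohb and in 6 of 9 for Magoh. In the Bod1L and Setd1a lines alone these counts were 6 of 6 and 5 of 6.

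The levels of the 2 paralogues followed each other only loosely. Pearson's r of log2 CPM was 0.165 over 36 libraries and 0.552 over the 24 libraries of the Bod1L and Setd1a lines, as a description over libraries that share lines, media and replicate numbers. Among 16031 genes of at least 1 CPM, those most like Magohb over the 36 libraries were Pabpc4l, for a poly(A)-binding protein relative (r = 0.862), Slain1, for a microtubule plus-end protein (0.854), Rimkla, for an enzyme that makes N-acetylaspartylglutamate (0.846), Rnf219 (0.835) and Cdca7l, for a MYC-binding nuclear protein (0.833). Averaged Mll2 log2 fold changes of these genes were -2.16 for Pabpc4l, -1.35 for Slain1, -2.52 for Rimkla, -0.80 for Rnf219 and -1.44 for Cdca7l, and these libraries were among those over which likeness was measured. In EpiSC medium they were -1.07, -0.39, -1.54, 0.49 and -0.21 in that order. Pabpc4l held 0.06 and 0.13 CPM in Mll2 knockout cells in 2i, against 1.27 and 2.13 CPM in wild type.

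Genes most like Magoh were Snrpd1, for a core Sm protein of spliceosomal particles (r = 0.934), Pdap1 (0.926), Nedd8, for a ubiquitin-like modifier (0.908), and the predicted genes Gm14277 (0.907) and Gm13461 (0.904). Their averaged Mll2 log2 fold changes lay between -0.23 (Pdap1) and 0.00 (Gm14277). In 2i the values lay between -0.87 (Pdap1) and -0.29 (Gm14277), and none of the 5 was called (edgeR adjusted p 0.28 to 0.771). All 5 had their highest level of these 4 libraries in the one labelled Mll2 wild type 2i replicate 2. Against wild-type replicate 1 alone, both knockout libraries were lower for Snrpd1 and Nedd8, both were higher for Gm13461, and they lay on either side for Pdap1 and Gm14277.

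With edgeR, none of the 3 core partners of the MAGOH proteins was called in Mll2 knockout cells in 2i or on average, while DESeq2 called Rbm8a in 2i. Rbm8a, which codes for the partner in the dimer, held 173 and 128 CPM in Mll2 knockout cells in 2i against 186 and 365 CPM in wild type, where the last value is from the library labelled replicate 2. Its log2 fold change in 2i was -0.87 ± 0.25 (edgeR adjusted p = 0.167, DESeq2 adjusted p = 0.0433) and its average -0.27 ± 0.14 (edgeR adjusted p = 0.661). Without that library the 2i value was -0.28 (edgeR adjusted p = 1) and the average -0.08. Without wild-type replicate 1 the 2i value was -1.20 (edgeR adjusted p = 0.00566), so the 2i value rests on which wild-type library is used. Eif4a3, for the helicase, was at -0.28 in 2i and 0.01 on average, and Casc3 at 0.11 and -0.02 (edgeR adjusted p at or above 0.735 for the 4 values). Per kilobase, mean levels over the 36 libraries were 101 CPM for Magoh, 65.8 for Eif4a3, 38.5 for Rbm8a, 25.8 for Casc3 and 6.80 for Magohb.

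**Figure D5:**
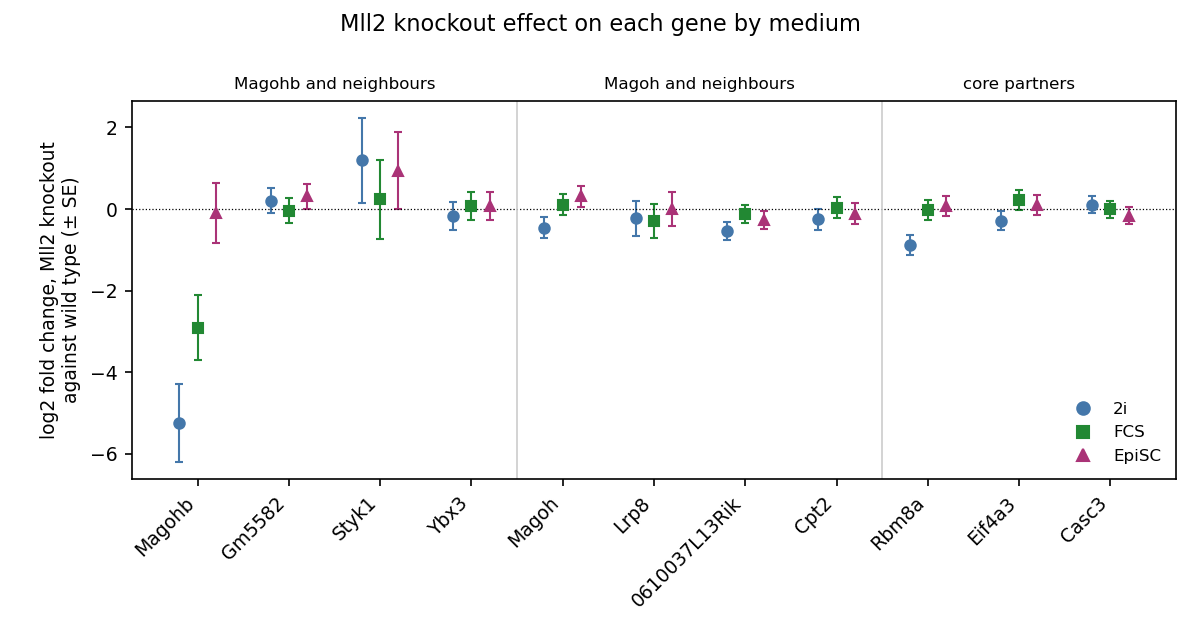
Log2 fold change (± SE) of Mll2 knockout against wild type in 2i (circles), FCS (squares) and EpiSC medium (triangles) for Magohb, Magoh, 6 neighbours (Gm5582, Styk1, Ybx3, Lrp8, 0610037L13Rik and Cpt2) and the core partners. Magohb is at -5.23, -2.90 and -0.10, while the other genes lie between -0.87 (Rbm8a in 2i) and 1.20 (Styk1 in 2i).

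Of 38 listed factors of the exon junction complex and of nonsense-mediated decay (3 core partners, 19 associated proteins and 16 decay factors), 0 were called in Mll2 knockout cells on average (edgeR; 2 at an unadjusted p below 0.05; 0.694% of all genes were called). With the replicate block (7.2% of all genes called) and with DESeq2 (1.96%) there was 1, Ipo13, for the importin of the MAGOH dimer (0.41 with the block, adjusted p = 0.0119). With edgeR the median was 0.02, beside -0.02 over all genes, of which 1980 of 23501 had an unadjusted p below 0.05. In 2i alone 0 were called and 10 had an unadjusted p below 0.05. Of all genes 0.464% were called in 2i, and 2414 of 23501 had an unadjusted p below 0.05 there. The median of the 38 was -0.16 there (all genes -0.04), with 26 of 38 below 0. With the block, which called 6.96% of all genes in 2i, 2 were called there, Cwc27 lower (-0.65) and Nbas higher (0.81). The count in 2i moved with the Mll2 wild-type 2i library left out. Shares of all genes called in such fits are not given here. Ipo13, Cwc27 and the genes called only under such alternatives were named after their values were seen.

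Nonsense-mediated decay targets, 13 transcripts whose levels are known to rise when the pathway is weakened, were likewise not called in Mll2 knockout cells (edgeR, 0 on average with 0 at an unadjusted p below 0.05, and 0 with DESeq2). Of all genes 0.694% were called on average, so 0 of 13 lies near that share. The median of the 13 was 0.04 on average (all genes -0.02). In 2i, where Magohb was close to 0, it was -0.04 (all genes -0.04). There 10 of 13 were below 0, beside 12349 of 23501 genes tested. The 13 include small nucleolar RNA host genes such as Gas5 and Snhg1 and stress genes such as Atf4 and Ddit3.

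In Setd1a knockout cells 3 of the 38 factors were called on average. Pym1, whose product takes exon junction complexes off messenger RNA, fell by 0.81 (adjusted p = 0.00592), and Dhx34, for a helicase of decay, fell by 0.84 (adjusted p = 0.0057). Nbas, for a decay factor at the endoplasmic reticulum, rose by 0.64 (edgeR adjusted p = 0.0203), a call lost without any 1 of 7 of the 12 libraries (highest adjusted p 0.0678, without Setd1a wild type EpiSC replicate 2). The 3 of 38 stand beside 8.85% of all genes, the median was -0.01 (all genes 0.07), and the block called 7 (5 lower, 2 higher), beside 26% of all genes. Leaving out Setd1a knockout EpiSC replicate 2 raised the count of 3. Among decay targets, Ddit3, for a stress transcription factor, rose by 1.37 (edgeR adjusted p = 0.000343), 1 of 13 (median 0.12), and with the block 6 were called (5 higher and 1 lower). In Bod1L knockout cells edgeR called 0 of 38 factors (0 at an unadjusted p below 0.05) and 0 of 13 targets (1 at an unadjusted p below 0.05). Of all genes 2.03% were called, and 1923 of 23501 had an unadjusted p below 0.05. The block called Snhg15 among the targets (0.47, adjusted p = 0.0244), beside 6.17% of all genes.

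Between media, large shares of all genes were called, and the counts of these factors are given beside them. In wild-type cells 21 of 38 were called between EpiSC medium and 2i, near the 52.5% of all genes. Of these, 18 were lower and 3 higher in EpiSC medium, with a median of -0.38 (all genes -0.07, with 6451 lower and 5891 higher). Rbm8a fell by 0.79 (edgeR adjusted p = 8.63e-05) and Eif4a3 by 0.35 (adjusted p = 0.0398), the latter call being lost without any 1 of 7 of the 12 libraries (highest adjusted p 0.349, without Mll2 wild type 2i replicate 2). Against FCS, where 41% of all genes were called, 17 were lower and 2 higher in EpiSC medium (median -0.34, all genes -0.01), among them Rbm8a (-0.48, adjusted p = 0.00954) and Eif4a3 (-0.60, adjusted p = 0.00137). The total against FCS was lower without Setd1a wild type FCS replicate 1. FCS against 2i gave 2 lower and 2 higher, beside 27.8% of all genes, and the total moved when 1 library was left out. Magoh and Magohb were not called in any of these contrasts, apart from fits for Magohb named above or in the closing section. Feeder markers rose with EpiSC medium, as given above, and their part was not tested.

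Genes beside Magohb on chromosome 6 did not show its low values in Mll2 knockout cells. Within 100 kb, 4 of 7 neighbours passed the filter. In Mll2 knockout cells in 2i, Gm5582 was at 0.20 ± 0.31, Styk1, for a receptor kinase relative 5.90 kb upstream of Magohb, at 1.20 ± 1.04, Ybx3, for a cold-shock RNA-binding protein, at -0.17 ± 0.35, and Gm22362, which lies within Ybx3 on the same strand and may share its reads, at 0.27 ± 0.77. None of the 4 was called there or on average (edgeR adjusted p at or above 0.739 in 2i and 0.815 on average). Styk1 was low, at 0.44 CPM in knockout against 0.19 CPM in wild type.

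Beside Magoh on chromosome 4, 6 of 9 genes within 100 kb passed the filter, and in Mll2 knockout cells 0 were called on average or in 2i (edgeR; 1 at an unadjusted p below 0.05 in each, and 0 with DESeq2). That gene was 0610037L13Rik, 2.39 kb downstream, with -0.31 ± 0.13 on average (edgeR adjusted p = 0.466). Of all genes, 1980 of 23501 on average and 2414 in 2i had an unadjusted p below 0.05. Lrp8, for a reelin receptor that ends 2.92 kb upstream of Magoh, was at -0.17 ± 0.24. In Setd1a knockout cells Cpt2, for a mitochondrial carnitine palmitoyltransferase, fell by 0.50 (edgeR adjusted p = 0.0429), a call lost without any 1 of 10 of the 12 libraries (highest 0.145, without Setd1a wild type 2i replicate 2). With the block, which called 26% of all genes in Setd1a knockout cells, 4 of the 10 tested neighbours of both genes were called there (Cpt2, 0610037L13Rik and Lrp8 lower, Styk1 higher at 1.65) and 1, Cpt2, in Bod1L knockout cells (-0.35, adjusted p = 0.0484; 6.17% of all genes).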

How the data were processed

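RNA was measured in 36 libraries (18 groups of 2). The deposited table holds counts of reads per gene, made by the authors with featureCounts 1.5.2 (strand setting 2, primary alignments, mapping quality at least 1, Ensembl 87 models), per the file headers, from GSNAP alignments to GRCm38 (mm10), per the submitters' processing notes. The deposited length column is a gene annotation, not a measurement. No source used here gives the trimming or the handling of duplicates. The labels' protocols say that poly(A)-selected RNA was made into strand-specific libraries. The table has 49763 lines, of which 92 spike-in lines held 0 counts and were removed.

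Counts were fitted with edgeR 4.0.16 in R 4.3.3 (TMM, filterByExpr at 10 counts, quasi-likelihood test, 18 residual degrees of freedom), with Benjamini-Hochberg adjustment over 23501 genes and calls below 0.05. Averages weighed the 3 media equally. DESeq2 1.42.0 was an alternative. The combined level is the sum of TMM-scaled CPM per kilobase and was compared with exact permutation tests within media or lines. The edgeR fit was checked on simulated data. Other settings are in the closing section.

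The members and the gene lists were chosen with earlier results of these data known. Named genes are the 2 members, the 3 targeted genes, the 3 core partners, tested neighbours within 100 kb, up to 4 listed genes per line called on average, the 5 genes most correlated with each member, and the genes ranked beside Magohb in the Mll2 average. Of the neighbours, Lrp8os2, Lrp8os3 and Slc1a7 passed the filter and enter the counts only. The labels give replicate numbers without stating a pairing. The difference between replicates 1 and 2 in knockout correlated with that in wild type by 0.401 to 0.848 across genes in all 9 line and medium pairs, so a fit with the 18 pairs as a replicate block was run for knockout contrasts. Across media in wild-type cells the correlations were -0.143 to 0.413, and the numbers were not taken as pairs.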

Additional observations from a re-analysis of the deposited data

Results flagged for a closer look

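In EpiSC medium the combined level of Magoh and Magohb in knockout cells was 0.766 times the wild-type level in the Setd1a line and 1.22 times in the Mll2 line, and every Setd1a knockout library was below both wild-type libraries while every Mll2 knockout library was above both of its own. The difference between the lines was not tested, and the Mll2 value belongs to the contrast that chose the genes. In 24 combinations of line, genotype and measure, with 6 libraries each, no library's gap to its nearest neighbour passed Dixon's 95% critical value. Those 6 libraries span 3 media, so the spread between media limits what the rule can flag. It did not flag the library labelled Mll2 wild type 2i replicate 2. Magoh in that library was at 129 CPM, above the 54.5 to 83.9 CPM of the other 5 Mll2 wild-type libraries. Its TMM factor of 0.837 was the lowest of the 36 libraries.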

How the results depend on the processing

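The low Magohb level in Mll2 knockout cells in 2i and FCS and the lack of a call for either gene in Bod1L and Setd1a knockout cells held under every alternative run: DESeq2, its size factors in edgeR, no filter on low counts, ESC media only, the 12 libraries of a line, the replicate block, and each library left out. With ESC media only, the Mll2 average was -4.07 for Magohb and -0.17 for Magoh. The wild-type difference of FCS from 2i for Magohb passed with the replicate block (1.36), with DESeq2 (1.11) and without the filter (1.13), the block there joining samples whose numbers were not taken as pairs. The Bod1L and Setd1a lines alone, an alternative chosen after seeing the data, gave 0.26 for Magoh in EpiSC medium against 2i. For Magohb in Bod1L knockout cells in FCS the sign turned to -0.0062 without the filter, -0.0072 in the 12 libraries of the line and -0.0044 with the replicate block. ESC media only gave -0.026 for Eif4a3 and 0.053 for Casc3 in the Mll2 average.

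Counts of listed genes called moved with several settings. The replicate block gave 7 exon junction and decay factors, 6 decay targets and 4 neighbours in Setd1a knockout cells, 1 decay target and 1 neighbour in Bod1L, and 1 factor on average and 2 in 2i in Mll2. It changed no other call in the knockout contrasts of the results given. DESeq2 gave 5 factors, 3 targets and 2 neighbours in Setd1a, and 1 factor on average and 1 in 2i in Mll2. Over all genes it called 1461 lower and 1458 higher in Setd1a. In Mll2 it called 328 lower and 62 higher on average, and 263 and 58 in 2i. DESeq2 size factors gave 2 targets and 0 neighbours in Setd1a, the 12 libraries of the line 2 and 2, and ESC media only 1 factor and 0 neighbours. Over all genes these settings called 1170 lower and 905 higher, 1211 and 875, and 762 and 349 in that order. Without the filter 10 factors were called between EpiSC medium and FCS (19 with it), and in the Bod1L and Setd1a lines 2 between FCS and 2i. Over all genes the former fit called 4458 lower and 4827 higher, and the latter 2481 lower and 2286 higher. The causes were not tested.

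The combined level in EpiSC medium against 2i turned to 0.12 with plain library totals, 0.014 without division by length and 0.0073 with main transcript lengths (the last added after seeing the data). Exchange within replicate pairs, added after seeing the data, moved no knockout comparison across 0.05. In Setd1a knockout cells the combined level differed by -0.19 with ESC media only (exact permutation p = 0.111), and the share of Magohb turned to -0.20 points. In Mll2 knockout cells the share differed by -8.55 points without length, -7.87 with main transcript lengths and -5.52 with ESC media only.

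Leaving out 1 library at a time, the Mll2 values of Magohb ran from -6.26 to -3.27 in 2i, -3.76 to -2.39 in FCS and -3.09 to -2.10 on average, and those of Magoh in 2i from -0.70 to -0.023. In Bod1L knockout cells Magohb ran from -0.97 to 1.48 in 2i, -0.17 to 0.11 in FCS, -0.68 to 0.80 in EpiSC medium and -0.24 to 0.58 on average, and Magoh from -0.063 to 0.18 in 2i, -0.40 to 0.45 in EpiSC medium and -0.0026 to 0.28 on average. In Setd1a knockout cells Magohb ran from -0.57 to 0.20, -0.43 to 0.11, -0.95 to 0.65 and -0.45 to 0.075 in the same order, and Magoh in FCS from -0.14 to 0.050. In wild-type cells Magohb ran from 0.85 to 1.75 for FCS against 2i, 0.19 to 1.19 for EpiSC medium against 2i and -0.48 to 0.32 between lines, and Magoh from -0.13 to 0.10 for EpiSC medium against 2i. In Mll2 knockout cells Rbm8a ran from -1.20 to -0.28 in 2i, Eif4a3 from -0.094 to 0.18 and Casc3 from -0.086 to 0.077 on average, and in 2i Gm5582 from -0.069 to 0.44, Styk1 from -0.24 to 2.84 and Ybx3 from -0.41 to 0.26. Factors called ran from 2 to 5 in Setd1a, 0 to 2 in Mll2 on average, 0 to 9 in Mll2 in 2i, 2 to 9 for FCS against 2i and 11 to 20 for EpiSC medium against FCS. Neighbours called ran from 0 to 2 in Setd1a and 0 to 1 in Mll2 in 2i. Shares of all genes called in these fits are not given here. Whether the counts of factors and neighbours moved with calls over all genes was therefore not tested. The Mll2 counts in 2i also come from fits that leave 1 library in a group. The combined level ran from -0.35 to -0.17 in Setd1a, -0.019 to 0.28 in Bod1L, -0.16 to 0.11 for EpiSC medium against 2i and 0.16 to 0.42 for FCS against 2i. The share of Magohb ran from -1.61 to 1.14 points in Bod1L, -1.12 to 1.24 in Setd1a and 2.52 to 5.27 for FCS against 2i.

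With 2 libraries a group, single-medium effects on Magohb carried standard errors of 0.73 to 0.95, and the 3 counts of the lowest library limit how closely its residual level is known.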
